A study of Mus musculus with 6 samples.

Results

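The transcripts described here encode 4 protein disulfide isomerases (P4hb, Pdia3, Pdia4 and Pdia6), the endoplasmic reticulum (ER) chaperones Hspa5, Hsp90b1, Calr and Canx, and the stress-response transcription factors Xbp1 and Ddit3. They were chosen by symbol, and all 10 were found among the 14975 genes of the table. Platelet RNA was compared between 3 control libraries, labelled WT, and 3 libraries labelled AML, which the study describes as pre-AML. Both came from mice on a C57BL/6 background, and in the study both were young adult female recipients of a bone marrow transplant after irradiation. Controls received normal bone marrow cells. Pre-AML mice received cells transformed by a retrovirus carrying the MLL-AF9 fusion oncogene and were sampled 1 week later. The labels name neither the fusion nor the week. Sources differ on the replicates, since the labels speak of pools of 3 to 4 mice and of 2 replicates per group, whereas the study's methods speak of 3 independent mice. If the libraries are not separate mice, the p-values below measure only the spread between these libraries. Neither source says whether the platelets came from donor or from surviving host megakaryocytes.

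Secreted and membrane proteins fold in the ER. Protein disulfide isomerases form and rearrange disulfide bonds there, BiP (Hspa5) and GRP94 (Hsp90b1) bind unfolded chains, and the lectins calreticulin (Calr) and calnexin (Canx) hold glycoproteins until they have folded. When unfolded protein accumulates, the unfolded protein response raises the genes of these chaperones, in part through the transcription factor XBP1, while prolonged stress induces CHOP (Ddit3). Platelets have no nucleus and receive their transcripts from the megakaryocyte. Several of their isomerases, among them PDI (P4hb), ERp57 (Pdia3), ERp72 (Pdia4) and ERp5 (Pdia6), are known to act at the platelet surface, where they take part in integrin activation and thrombus formation.

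Values are FPKM (fragments per kilobase of gene, scaled to library size), so that levels can be compared between genes per length. The reads recovered from them were between 11935977 and 17778912 per library. Platelet identity was clear, from the summed level of 10 platelet markers, most of it from Pf4 and Ppbp. It was 60838 FPKM in pre-AML 3 and between 88976 and 113009 FPKM in the other 5 libraries. One library stood apart. Pre-AML 3 lay at 41.9 on the first principal component, the others between -12.7 and -2.12, and it had the highest levels of B cell and macrophage markers. Results that rest on pre-AML 3 are therefore given with and without it. In bulk RNA, fewer cells of a type and less RNA per cell cannot be told apart.

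In control platelets, the levels of the 10 transcripts spanned from 2.22 to 43.3 FPKM (means of 3 libraries). Calr had the highest mean, with 43.3 ± 13.7 FPKM (SD, n = 3), and ranked 613 of the 14975 genes. By mean Ddit3 followed with 39.4 ± 10.3 FPKM, P4hb with 36.0 ± 7.63 FPKM, Pdia3 with 24.4 ± 6.22 FPKM and Canx with 18.04 ± 3.57 FPKM (each SD, n = 3). The lead of Calr over Ddit3 came from control 1, with 58.9 against 28.1 FPKM. Ddit3 was above Calr in control 2 (48.2 against 37.7 FPKM) and in control 3 (41.9 against 33.3 FPKM). The control ranges of neighbours in this order overlapped as far as Canx, although within each control P4hb was above Pdia3 and Pdia3 above Canx. A gap followed, since the lowest control value of Canx was 15.3 FPKM and the highest of Hspa5, next in order, was 10.2 FPKM. The lower tier held Hspa5 with 8.17 ± 1.78 FPKM, Pdia4 with 5.88 ± 1.93 FPKM, Pdia6 with 3.21 ± 1.36 FPKM, Xbp1 with 2.93 ± 0.34 FPKM and Hsp90b1 with 2.22 ± 0.271 FPKM (each SD, n = 3). Within this tier the control ranges of neighbours also overlapped, except that all controls of Hsp90b1 were below all controls of Xbp1. Within each control, Pdia4 was above Pdia6. Hsp90b1 ranked 3075 of all genes. Among the 4 isomerases, P4hb made up between 51.2% and 52.5% of their summed FPKM in the controls, and Pdia4 with Pdia6 between 10.9% and 15.6%.

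**Figure D1:**
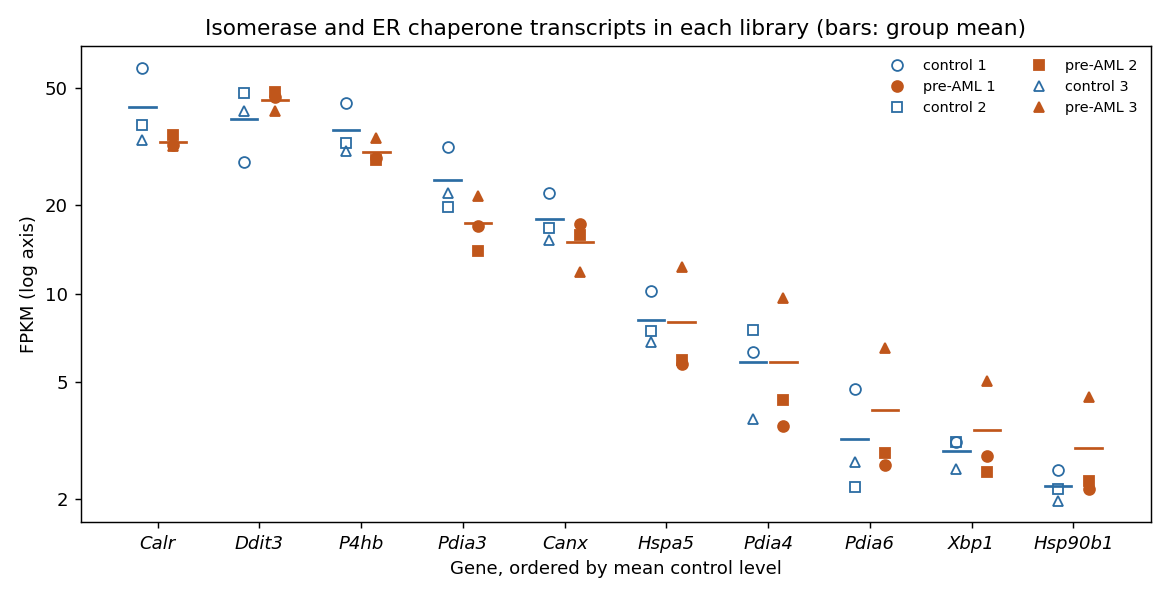
FPKM (log axis) of the 10 isomerase, chaperone and stress-response genes in each of the 3 control (open) and 3 pre-AML (filled) libraries, with bars at the group means and symbols for the replicate number. The groups overlap for every gene, and the filled triangle of pre-AML 3 is the highest point for Hspa5, Pdia4, Pdia6, Xbp1 and Hsp90b1.

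None of the 10 genes differed between pre-AML and control platelets beyond the replicate spread. All 10 passed the filter of a mean of at least 1 FPKM, and 0 of 10 had an adjusted p under 0.05 in either direction, against 0.0227% of the 4412 tested genes higher in pre-AML and 0% lower (limma-trend on log2(FPKM + 1), Benjamini-Hochberg adjustment over all tested genes). The 1 gene past the threshold was Gzma, a marker of NK and T cells, named here after its values were seen. At an unadjusted p under 0.05 the count was also 0 of 10, against 2.56% of tested genes higher and 6.53% lower. For 0 of the 10 did the groups separate without overlap, where 6.14% of tested genes had all pre-AML libraries above and 12.8% all below the controls. The log2 fold changes, which are differences in log2(FPKM + 1) and understate the change of low genes, were between -0.45 and 0.26. Of the 10, 4 were above 0 and 6 below, with a median of -0.074, against -0.055 over all tested genes. Limma-voom on recovered reads called 0 of all tested genes. With the libraries scaled to the same summed FPKM, 6 of the 10 were above 0 and 4 below, with a median of 0.085 against 0.084 over all genes tested, and genes at an unadjusted p under 0.05 numbered 272 higher and 196 lower, against 113 and 288 before. Without pre-AML 3, 0 of the 10 were called, against 0.047% of the 4258 genes then tested higher and 0% lower, and 2 of the 10, Pdia3 and Hspa5, were lower at an unadjusted p under 0.05, against 5.21%, and 0 higher, against 3.76%. The median of the 10 was then -0.21, and that of all genes tested -0.027.

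The isomerases were led by P4hb, which encodes PDI, the best known disulfide isomerase and also a subunit of prolyl 4-hydroxylase (Entrez gene 18453, chr11:120560298-120573253, minus strand). P4hb was at 44.7, 32.7 and 30.6 FPKM in controls 1 to 3 and at 29.1, 28.5 and 33.8 FPKM in pre-AML libraries 1 to 3, the order kept for every gene below. Control 1 stood above all other libraries, and pre-AML 3 above control 2 and control 3. The log2 fold change was -0.22 (standard error 0.17, 95% interval -0.61 to 0.18, adjusted p = 0.614). It was -0.055 without control 1.

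Pdia3, for ERp57, the isomerase that works with calnexin and calreticulin on glycoproteins, lies at chr2:121413775-121438687 on the plus strand (Entrez gene 14827). Its controls had 31.5, 19.8 and 21.98 FPKM, and the pre-AML libraries had 17.0, 14.0 and 21.5 FPKM. Pre-AML 1 and pre-AML 2 were below all controls, whereas pre-AML 3 was within their range. Of the 10 genes it had the log2 fold change farthest below 0, -0.45 (standard error 0.21, 95% interval -0.94 to 0.04, unadjusted p = 0.0666, adjusted p = 0.522). Without pre-AML 3 it was -0.61 (unadjusted p = 0.0104, adjusted p = 0.459 from limma-trend), and without control 1 it was -0.26.

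Pdia4, for ERp72, is an isomerase with 3 catalytic domains (Entrez gene 12304, chr6:47796141-47813430, minus strand). It was at 6.36, 7.52 and 3.75 FPKM in the controls and at 3.54, 4.34 and 9.67 FPKM in the pre-AML libraries, which thus held both the lowest and the highest value. The pre-AML values rested on 113, 157 and 541 reads. A log2 fold change of -0.068 (standard error 0.34, 95% interval -0.84 to 0.70, adjusted p = 0.947) became -0.44 once pre-AML 3 was left out, and was 0.090 with the libraries scaled to the same summed FPKM.

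Pdia6, for ERp5 (Entrez gene 71853, chr12:17266545-17284770, plus strand), had 4.75, 2.20 and 2.67 FPKM in the controls. The pre-AML libraries had 2.61, 2.89 and 6.57 FPKM. The highest values of each group, control 1 and pre-AML 3, lay well above the other 4 libraries, which were between 2.20 and 2.89 FPKM. Pre-AML exceeded control by 0.22 on the log2 scale (standard error 0.32, 95% interval -0.51 to 0.95, adjusted p = 0.791), and the value was -0.12 without pre-AML 3. Within the summed FPKM of the 4 isomerases, the share of Pdia4 with Pdia6 was 22.7% in pre-AML 3, against at most 15.6% in the other 5 libraries, while the share of P4hb was lowest there, at 47.3%.

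Hspa5 encodes BiP, the HSP70 chaperone of the ER and the regulator that keeps the stress sensors inactive at rest (Entrez gene 14828, chr2:34771970-34777547, plus strand). The controls were at 10.2, 7.49 and 6.84 FPKM and the pre-AML libraries at 5.79, 5.96 and 12.3 FPKM. Pre-AML 1 and pre-AML 2 were below all controls and pre-AML 3 was above all of them. The difference was -0.081 on the log2 scale (standard error 0.27, 95% interval -0.70 to 0.54, adjusted p = 0.921). Without pre-AML 3 it was -0.40 with an unadjusted p of 0.0492, where 5.21% of tested genes were lower at that level, and its adjusted p from limma-trend was 0.545. Scaled to the same summed FPKM, Hspa5 was at 0.080.

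Hsp90b1 encodes GRP94, the HSP90 chaperone of the ER, whose clients include integrins, toll-like receptors and the GPIb-IX complex (Entrez gene 22027, chr10:86690209-86705509, minus strand). Its controls had 2.51, 2.17 and 1.98 FPKM, from 119, 123 and 95 reads. Pre-AML 1 and pre-AML 2 were within that range with 2.16 and 2.30 FPKM, while pre-AML 3 had 4.48 FPKM, 1.78 times the highest of the other libraries. The log2 fold change of 0.26 (standard error 0.23, 95% interval -0.25 to 0.78, adjusted p = 0.634) was 0.0080 without pre-AML 3. Hsp90b1 shares 415 exonic bases with a gene on the opposite strand, from which its reads cannot be told apart unless strand was used in counting.

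In FPKM, the lectin chaperones did not follow BiP and GRP94 in pre-AML 3. Calr (Entrez gene 12317, chr8:84841850-84846934, minus strand), for the soluble lectin calreticulin, which also buffers ER calcium, had 58.9, 37.7 and 33.3 FPKM in the controls and 32.2, 34.6 and 31.8 FPKM in the pre-AML libraries. Control 1 was far above the rest, and pre-AML 3 was the lowest library in FPKM. As a share of summed FPKM, Calr in pre-AML 3 would be above every library but control 1. On the log2 scale the difference was -0.34 (standard error 0.21, 95% interval -0.82 to 0.13, adjusted p = 0.55) and -0.10 without control 1. An annotated pseudogene, Calr-ps, could share reads with Calr.

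Canx, for calnexin, the membrane-bound lectin (Entrez gene 12330, chr11:50293961-50325673, minus strand), had 22.1, 16.7 and 15.3 FPKM in the controls. The pre-AML libraries had 17.3, 15.8 and 11.9 FPKM, and pre-AML 3 was again the lowest of the 6 in FPKM. As a share of summed FPKM, Canx in pre-AML 3 would be above control 3 and pre-AML 2. The log2 fold change of -0.25 (standard error 0.19, 95% interval -0.69 to 0.18, adjusted p = 0.603) was -0.10 without pre-AML 3, and 0.035 after correction for the length and GC content of genes. The ratio of Calr to Hspa5 was between 4.87 and 5.81 in 5 libraries and 2.58 in pre-AML 3.

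The transcription factors of the stress response also differed in pattern. Xbp1 (Entrez gene 22433, chr11:5520659-5525893, plus strand) encodes a factor that becomes active when the sensor IRE1 removes a short intron from its mRNA, and FPKM per gene does not separate the spliced from the unspliced form. It had 3.12, 3.13 and 2.54 FPKM in the controls and 2.80, 2.47 and 5.04 FPKM in the pre-AML libraries. Only pre-AML 3 lay outside the narrow span of the others. Xbp1 differed by 0.13 on the log2 scale (standard error 0.22, 95% interval -0.37 to 0.64, adjusted p = 0.811), and by -0.11 without pre-AML 3.

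Ddit3, for CHOP (Entrez gene 13198, chr10:127290774-127296288, plus strand), was above Calr in every library but control 1. The controls had 28.1, 48.2 and 41.9 FPKM and the pre-AML libraries 46.9, 48.6 and 41.9 FPKM. Control 1 was the lowest library for Ddit3, the reverse of its place for Calr, Canx, P4hb and Pdia3, where it was the highest. Pre-AML 3 was within the range of the controls. The log2 fold change of 0.24 (standard error 0.20, 95% interval -0.22 to 0.70, adjusted p = 0.621) was 0.024 without control 1. Exons of Ddit3 share 68 bases with a gene on the opposite strand and 105 bases with a second gene model of the same name.

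**Figure D2:**
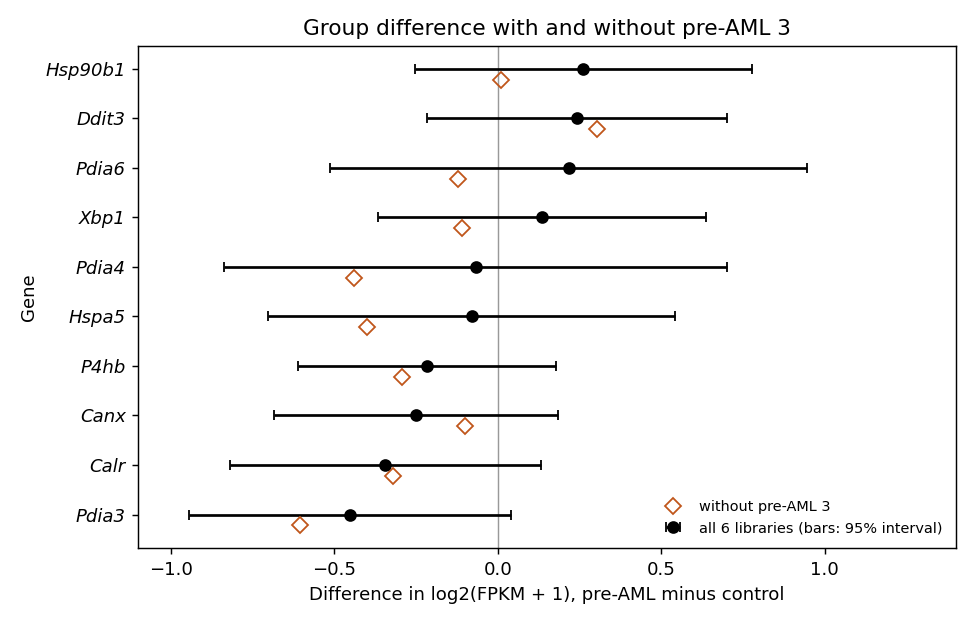
Difference in log2(FPKM + 1) between 3 pre-AML and 3 control libraries (black points, bars are 95% intervals from limma-trend) for each of the 10 genes on the vertical axis, with the value without pre-AML 3 as open diamonds. All intervals include 0, and leaving out pre-AML 3 lowers Pdia4 from -0.068 to -0.44 and Hspa5 from -0.081 to -0.40.

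On the deposited FPKM scale, the genes of the group split by what pre-AML 3 did. In it 5 of the 10, Pdia4, Pdia6, Hspa5, Hsp90b1 and Xbp1, had their highest value of the 6 libraries, against 18.7% of all tested genes. These were the 5 genes of the lower tier in control platelets. Pre-AML 3 was the lowest library for 2 of the 10, Calr and Canx, against 43.8% of tested genes. These places depend on the scale, since pre-AML 3 summed to 376148 FPKM and the other libraries to between 508605 and 541784 FPKM. As shares of summed FPKM, neither Calr nor Canx would be lowest in pre-AML 3, and P4hb and Ddit3 would also be highest there. The split by tier would then not hold. Control 1 was the highest library for 4 of the 10, P4hb, Pdia3, Calr and Canx, against 23% of tested genes. Relative to the mean of the other 5 libraries, pre-AML 3 was 1.70 times as high for Hspa5, 1.79 for Xbp1, 1.89 for Pdia4, 2.01 for Hsp90b1 and 2.17 for Pdia6. The ratio was 1.02 for P4hb, 1.03 for Pdia3, 0.981 for Ddit3, 0.81 for Calr and 0.68 for Canx. These are values of 1 library and carry no test. The summed FPKM of the 10 genes was 0.0476% of all FPKM in pre-AML 3 and between 0.0299% and 0.0392% in the other 5.

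**Figure D3:**
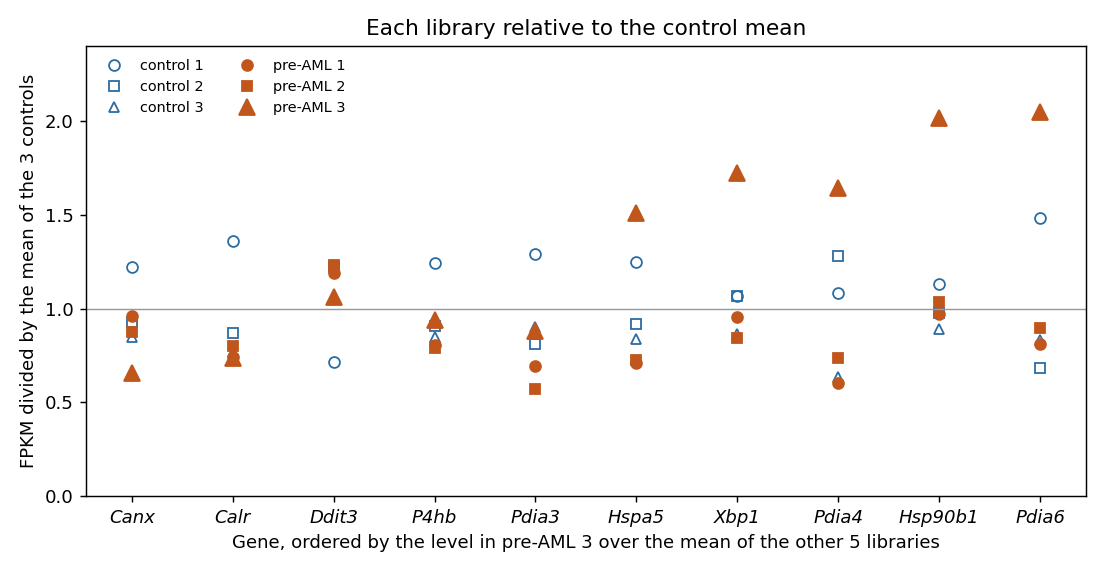
FPKM of each library divided by the mean of the 3 controls (vertical axis, linear from 0) for the 10 genes, ordered by the level of pre-AML 3 over the mean of the other 5 libraries. Pre-AML 3 (large triangles) sits above every other library for the 5 genes on the right, Hspa5, Xbp1, Pdia4, Hsp90b1 and Pdia6, and is the lowest for Canx and Calr.

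Markers of other blood cells moved with the same library. The summed level of 8 B cell markers was 250.7 FPKM in pre-AML 3, 0.881 and 21.04 FPKM in pre-AML 1 and pre-AML 2, and between 1.46 and 1.93 FPKM in the controls, and 8 of 8 were highest in pre-AML 3. For 10 monocyte and macrophage markers the sum was 3366 FPKM in pre-AML 3, 2489 and 2341 FPKM in the other pre-AML libraries, and between 2385 and 2616 FPKM in the controls, most of it from Lyz2, and 10 of 10 were highest in pre-AML 3. Plasma cells are rich in ER chaperones. The 6 plasma cell markers in the table summed to 5.64 FPKM in pre-AML 3, against at most 1.54 FPKM elsewhere, and 3 of 6 were highest there, led by Mzb1 with 3.91 FPKM, whereas Jchain with 0.204 FPKM was the lowest of the 6 libraries and Prdm1 had 0.00768 FPKM. One of the 6, Derl3, also stands in the list for ER-associated degradation below. The 7 T and NK cell markers summed to 19.1 to 28.9 FPKM in the controls and 33.2 to 35.7 FPKM in the pre-AML libraries, 5 of 7 being highest in pre-AML 3. Among them Gzma, the gene past the threshold, had 0, 0.353 and 0 FPKM in the controls and 7.25, 4.61 and 8.90 FPKM in the pre-AML libraries. Without Gzma the sums would overlap. Nkg7, the largest part, had 22.9, 28.2 and 18.9 FPKM in the controls and 25.2, 27.9 and 22.6 FPKM in the pre-AML libraries. Erythroid markers (4 genes) summed to 1243 to 1536 FPKM in the controls and 1738 to 2050 FPKM in the pre-AML libraries, with 0 of 4 highest in pre-AML 3. Neutrophil markers (8 genes) were at most 3.49 FPKM in sum in every library, and 0 of 8 were highest in pre-AML 3, where Ltf, Elane, Mpo and Retnlg were at 0. Leukemic progenitor markers (6 genes) were at most 2.51 FPKM in sum, with Hoxa9 and Hoxa10 at 0 in pre-AML 3. The part of other cells in the levels of the 5 genes that stood high in pre-AML 3 was not tested.

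The promoters of these genes are shown because the unfolded protein response acts on several of them through a shared DNA element. The ER stress response element was searched as CCAAT and CCACG with 9 bases between them, on both strands, in windows from 250 bases before to 50 bases after the RefSeq start site (GRCm38.p6), and 10 of 10 genes had a window. It was present in 5 of the 10, Hspa5, Hsp90b1, Pdia6, Calr and Canx, where 0.137% of the 27025 genes with a window and 0.226% of the 3547 tested genes with a window held it. Hsp90b1 held it at 2 places. A shorter element, ATTGG and CCACG with 1 base between them, was in 0 of the 10 and in 0.0444% of all genes. The letters in capitals are the fixed bases of the first element in the 170 bases before the start site, and for Hsp90b1 and Calr it reads on the opposite strand, so that the capitals give its reverse complement.
Hspa5: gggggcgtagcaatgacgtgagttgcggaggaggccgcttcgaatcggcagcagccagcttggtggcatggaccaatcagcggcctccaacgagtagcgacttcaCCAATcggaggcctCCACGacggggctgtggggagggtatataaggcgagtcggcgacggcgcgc
Hsp90b1: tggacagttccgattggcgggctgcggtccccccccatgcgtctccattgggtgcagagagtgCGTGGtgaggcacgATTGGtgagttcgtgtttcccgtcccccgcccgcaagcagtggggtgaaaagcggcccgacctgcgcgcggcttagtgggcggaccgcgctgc
Pdia6: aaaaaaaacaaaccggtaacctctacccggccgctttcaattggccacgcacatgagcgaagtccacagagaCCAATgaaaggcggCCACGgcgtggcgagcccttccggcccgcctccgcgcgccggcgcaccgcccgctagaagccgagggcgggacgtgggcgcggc
Calr: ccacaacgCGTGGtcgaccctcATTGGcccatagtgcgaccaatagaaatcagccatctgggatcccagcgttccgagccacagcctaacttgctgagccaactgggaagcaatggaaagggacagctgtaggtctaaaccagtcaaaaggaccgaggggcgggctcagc
Canx: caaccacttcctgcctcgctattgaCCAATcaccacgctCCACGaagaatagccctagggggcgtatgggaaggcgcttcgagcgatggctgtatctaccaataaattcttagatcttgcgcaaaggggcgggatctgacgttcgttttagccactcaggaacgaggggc
These stretches lie at chr2:34771920-34772089 (plus strand), chr10:86705445-86705614 (minus strand), chr12:17266419-17266588 (plus strand), chr8:84846932-84847101 (minus strand) and chr11:50325674-50325843 (minus strand) of GRCm38, in the same order. In Hspa5 the element ran from 65 to 47 bases before the start site, in Pdia6 from 98 to 80, in Canx from 145 to 127 and in Calr from 162 to 144. Hsp90b1 had it from 107 to 89 bases before the start site on the opposite strand and, outside the stretch shown, from 212 to 194 on its own strand. Of the genes with the element, Hspa5, Hsp90b1 and Pdia6 were highest in pre-AML 3. Calr and Canx were lowest there in FPKM, but would not be as shares of summed FPKM. Pdia4 and Xbp1, also highest in pre-AML 3, had no match in this window. Whether the element bears on these levels was not tested.

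**Figure D4:**
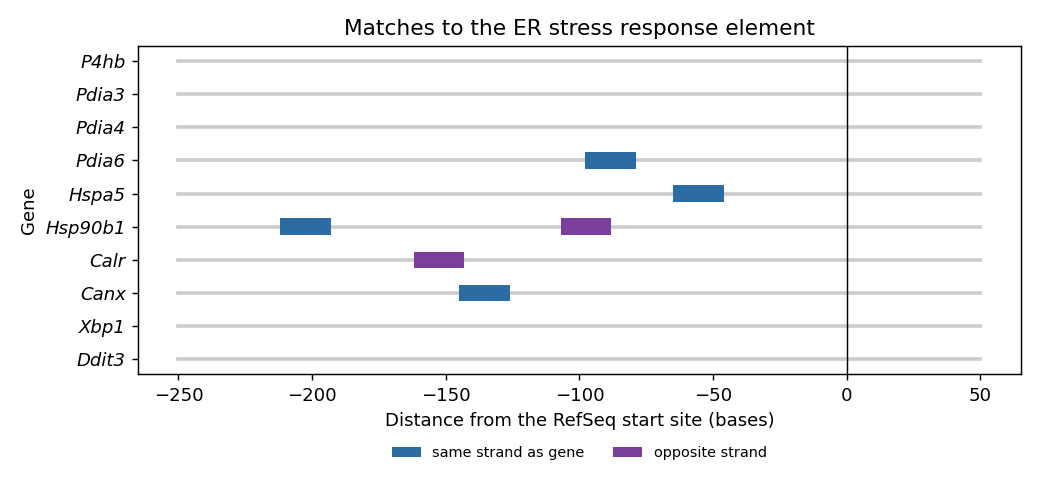
Matches to the ER stress response element (bars) in the window of each of the 10 genes, by distance in bases from the RefSeq start site (horizontal axis, vertical line at the start), coloured by strand relative to the gene. Matches lie between 212 and 47 bases before the start in Hspa5, Hsp90b1, Pdia6, Calr and Canx, and the other 5 genes have none.

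Genes that work with these proteins were described from 7 lists, of which 104 of 109 genes were in the table and 64 were tested. Of these 64, 0 had an adjusted p under 0.05 from limma-trend. At an unadjusted p under 0.05, 1 of the 64 was higher and 10 were lower in pre-AML platelets, against 2.56% and 6.53% of all tested genes. The groups did not overlap for 1 higher and 11 lower genes, against 6.14% and 12.8%, and the median log2 fold change was -0.11, against -0.055. The 10 lower genes became 3 after correction for length and GC content, where the count over all genes also went from 288 to 133, and 1 of 65 tested without control 1, where it was 134, and with the same summed FPKM there were 2 higher and 9 lower with a median of 0.044. Without pre-AML 3, 62 were tested, with 1 higher and 8 lower at an unadjusted p under 0.05, against 3.76% and 5.21% of all genes tested there.

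Of the other thiol isomerases, 8 were tested among the 15 found, and 7 of them were below 0. At an unadjusted p under 0.05, 3 of the 8 were lower, against 6.53% of all tested genes. The count was 0 after correction for length and GC content and 1 without control 1. Selenof, a selenoprotein oxidoreductase that binds the glycoprotein glucosyltransferase, was far above any of the 10 genes, with 255, 201 and 204 FPKM in the controls and 190, 167 and 109 FPKM in the pre-AML libraries. On the log2 scale the difference was -0.53 (standard error 0.22, unadjusted p = 0.0406, adjusted p = 0.522). The transmembrane isomerase Tmx1 had 20.9, 20.1 and 19.7 FPKM in the controls and 15.5, 16.2 and 10.9 FPKM in the pre-AML libraries (log2 fold change -0.50, standard error 0.17, unadjusted p = 0.0168, adjusted p = 0.522), and for Tmx2 the difference was -0.47 with the same adjusted p. For all 3, every pre-AML library was below every control, as for 12.8% of all tested genes, and pre-AML 3 was the lowest, as for 43.8%. Without pre-AML 3 the log2 fold changes were -0.29, -0.33 and -0.35. Erp29, a chaperone of the family without a catalytic site, was at -0.18 (adjusted p = 0.614). Txndc5, for the isomerase ERp46, was below the filter with 0.489 ± 0.142 FPKM in control platelets (SD, n = 3) and reached 3.02 FPKM in pre-AML 3, and was picked for mention after its values were seen.

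Among enzymes that keep the ER oxidizing, 2 of 4 tested genes were lower at an unadjusted p under 0.05, against 6.53% of all tested genes. After correction for length and GC content 0 were lower and 1 was higher, and without control 1 the count was 0 in both directions. The ER peroxiredoxin Prdx4 had 42.4, 35.9 and 38.5 FPKM in the controls and 32.9, 32.0 and 19.99 FPKM in the pre-AML libraries (log2 fold change -0.48, standard error 0.20, adjusted p = 0.522). All its pre-AML libraries were below all controls, as for 12.8% of all tested genes. Gpx8, an ER peroxidase, had 4.23, 2.37 and 1.44 FPKM in the controls and 0.574, 1.52 and 0.613 FPKM in the pre-AML libraries, and the groups overlapped (log2 fold change -0.92, standard error 0.31, adjusted p = 0.522). Qsox1, a sulfhydryl oxidase, and Vkorc1, which recycles vitamin K, had log2 fold changes of 0.043 and 0.24 (adjusted p = 0.927 and 0.573).

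Among partners of BiP and GRP94, 9 of 15 were tested and 0 passed an unadjusted p of 0.05. Sdf2 was the most abundant, with 49.0 ± 5.57 FPKM in controls against 50.5 ± 7.23 FPKM in the pre-AML libraries (SD, n = 3). Dnajb9 and Dnajb11, which encode J-domain partners of BiP, had log2 fold changes of -0.43 and -0.32 (adjusted p = 0.522 each), and Creld2, a stress-induced protein, was at 0.033. Sdf2l1, an XBP1-dependent partner of BiP that was picked after its values were seen, had 3.77, 1.86 and 1.90 FPKM in the controls and 1.09, 2.21 and 10.6 FPKM in the pre-AML libraries, with pre-AML 3 first and control 1 next, as for Pdia6. In this list pre-AML 3 was the highest library for 4 of 9 tested genes, against 18.7% of all tested genes and 17 of the 64 tested over the 7 lists. Of the 4, Cnpy2 passed the filter only through pre-AML 3 (2.41 FPKM, against at most 1.27 FPKM elsewhere), which favours its place as highest.

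The prolyl isomerases of the ER were mostly too low to test, with 2 of 7 passing the filter. Ppic was at -0.83 on the log2 scale (standard error 0.29, unadjusted p = 0.0202, adjusted p = 0.522) and Ppib, for cyclophilin B, -0.19 (adjusted p = 0.662). Fkbp9 was untested, with 0.768 ± 0.372 FPKM in controls against 0.397 ± 0.0306 FPKM in the pre-AML libraries (SD, n = 3).

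For the glycoprotein folding cycle and ER-associated degradation, 13 of 20 genes were tested, 8 above 0 and 5 below, and 0 passed an unadjusted p of 0.05. Derl1, for a channel protein of ER-associated degradation, had 261 ± 14.8 FPKM in controls against 231 ± 32.6 FPKM in the pre-AML libraries (SD, n = 3), several times the level of Calr. Erlec1, a lectin of this pathway, and Edem1, which trims mannose from misfolded glycoproteins, had log2 fold changes of -0.45 and -0.29 (adjusted p = 0.522 and 0.581). Herpud1, a stress-induced scaffold of the degradation complex, had the largest value above 0 of the list, 0.42 (adjusted p = 0.526).

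Sensors and effectors of the unfolded protein response numbered 9 tested of 19. Creb3l1, a membrane-bound transcription factor cleaved like ATF6, had 8.15, 8.63 and 7.52 FPKM in the controls and 9.50, 11.3 and 10.3 FPKM in the pre-AML libraries. All pre-AML libraries were above all controls, as for 6.14% of all tested genes, and the log2 fold change was 0.32 (standard error 0.13, unadjusted p = 0.0399, adjusted p = 0.522). Without pre-AML 3 it was also 0.32 with an unadjusted p of 0.0551 from limma-trend, and after correction for length and GC content it was 0.16. Atf4, the factor upstream of Ddit3, was high with 147 ± 18.4 FPKM in controls against 134 ± 25.6 FPKM in the pre-AML libraries (SD, n = 3) and had a log2 fold change of -0.14. Nfe2l2 and the sensor gene Atf6 were at -0.13 and -0.22 (adjusted p = 0.734 and 0.63).

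All 19 genes of the translocation and N-glycosylation machinery were tested, 15 below 0 and 4 above, with 4 lower at an unadjusted p under 0.05, against 6.53% of all tested genes. Of those above 0, Rpn1 and Spcs2 passed the filter only through pre-AML 3. Without pre-AML 3, 17 were tested, 15 below 0 and 2 above, with 4 lower at that level, against 5.21%. With all 6 libraries, the 4 lower genes became 2 after correction for length and GC content, and without control 1 they became 0. With the same summed FPKM 10 were below 0 and 9 above, and 3 were lower at that level. The signal peptidase subunits Spcs1, Sec11c and Spcs3 had log2 fold changes of -0.52, -0.46 and -0.44, and Ssr3 of the translocon-associated complex was at -0.48 (adjusted p = 0.522 each). Spcs1 had 309, 281 and 243 FPKM in the controls and 239, 210 and 142 FPKM in the pre-AML libraries. For 5 of the 19, these 4 among them, every pre-AML library was below every control, against 12.8% of all tested genes. Ssr4 was at -0.34 (adjusted p = 0.553). Rpn1, a subunit of the oligosaccharyltransferase picked after its values were seen, had 1.13, 0.677 and 0.41 FPKM in the controls and 1.07, 0.955 and 4.62 FPKM in the pre-AML libraries. It thus stood high only in pre-AML 3, the library through which it passed the filter.

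**Figure D5:**
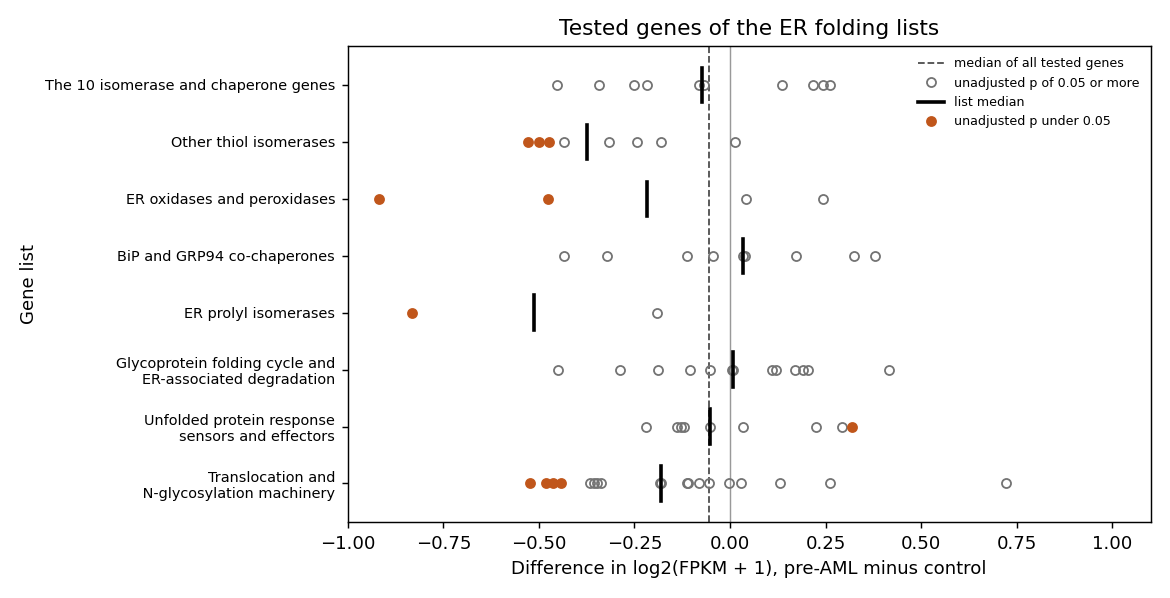
Difference in log2(FPKM + 1), pre-AML minus control, of each tested gene in the 10-gene group and the 7 lists of the ER folding pathway (one row per list), with list medians as black bars and the median of all tested genes, -0.055, as a dashed line. Filled points, with an unadjusted p under 0.05, lie below 0 except Creb3l1, and none is in the row of the 10 genes.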

How the data were processed

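Platelets were purified by depleting CD45+ or Ter119+ cells, and their cDNA was made with SMART-Seq2 and Nextera XT. The authors mapped reads to mm10 with STAR. The counting program, its use of strand and the annotation are not given in the sources used here. They deposited one FPKM value per gene and library. Columns were assigned to samples by name.

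The 2 groups of 3 libraries were compared on log2(FPKM + 1) over genes whose mean reached 1 FPKM. The test was limma-trend, two-sided and without covariates, from limma 3.58.1 in R 4.3.3, and Benjamini-Hochberg adjusted p under 0.05 was called. The method was tested on simulated data. Gene lengths were unions of exons in GENCODE M21 (GRCm38). With them 85.2% of values were whole reads within 0.05 of a read, and recovered reads are estimates (3 reads on a gene of 2 kb make between 0.0643 and 0.128 FPKM). A smaller step, which would double the reads of every library but pre-AML 3, cannot be told apart from the one used. FPKM had been scaled so that pre-AML 3 was divided by 1.31 times its recovered reads, and the others by 0.983 to 1.01 times. The members, lists and markers were chosen with earlier results of these data known. Besides the 10 genes, the text names for each list the 3 genes with the highest control mean and the 2 tested genes with the smallest p. Alternatives were another pseudocount and filters, scalings, length and GC correction, array weights, limma-voom on recovered reads, a replicate block and leaving out each library. Promoters were RefSeq windows (GRCm38.p6), matched by symbol.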

Additional observations from a re-analysis of the deposited data

How the results depend on the processing

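Over 15 alternatives the 10 genes gave 147 values, of which 0 passed the threshold, with adjusted p of 0.163 or more. Of 544 values of 37 named genes, 514 kept their sign and 30 turned, and 0 were called. Over all genes, 1 was called higher and 0 lower. The higher count was 0 with no filter, with a mean of at least 5 FPKM, with the same summed FPKM, with length and GC trends removed and with limma-voom, 2 with array weights (whose fit stopped short of its tolerance), and 0 to 2 with each library left out. The same summed FPKM moved the median over all genes from -0.055 to 0.084. The median of the 10 genes was -0.074, and -0.25 to 0.13 with each library left out.

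With the same summed FPKM the sign turned for Pdia4 (0.090), Hspa5 (0.080), Atf4 (0.032) and Nfe2l2 (0.032); with length and GC trends removed for Pdia4 (0.066), Hspa5 (0.086), Canx (0.035), Creld2 (-0.010), Nfe2l2 (0.083) and Qsox1 (-0.044); with limma-voom for Pdia4 (0.092) and Hspa5 (0.073); and with array weights for Xbp1 (-0.12) and Creld2 (-0.095). With each library left out, ranges crossed 0 for Pdia4 (-0.44 to 0.18), Pdia6 (-0.12 to 0.47), Hspa5 (-0.40 to 0.087), Xbp1 (-0.11 to 0.29), Atf4 (-0.25 to 0.029), Creld2 (-0.12 to 0.11), Qsox1 (-0.060 to 0.15) and Sdf2 (-0.065 to 0.14). The cause of these turns was not tested.

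Same-numbered control and pre-AML libraries did not deviate together (correlations of deviations across genes -0.043, -0.12 and -0.17). Deviations from the mean of 3 libraries sum to 0 in each group, and pre-AML 3 stood far apart. These correlations therefore cannot decide whether the numbers pair the libraries. With the replicate block, 1 gene was called higher and 0 lower, and the median of the 10 genes was -0.07. With 3 libraries per group, any difference within the interval given for a gene remains compatible with its values.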
